A study of Mus musculus with 24 samples.

Results

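Tropomyosin is the coiled-coil protein that lies along the actin filament, and the mouse has 4 genes for it, Tpm1, Tpm2, Tpm3 and Tpm4. Together they give many proteins, through alternative splicing and, for some of the genes, alternative promoters. Some isoforms belong to the thin filament of the sarcomere, where tropomyosin and troponin gate the binding of myosin, and others belong to the cytoskeletal actin filaments of non-muscle cells and of myoblasts before they fuse. The array probe sets annotated to these genes were followed one by one, because probe sets of one gene can read different transcripts. All probe sets whose annotation gives one of these 4 symbols were taken, out of 18193 genes named on a pair of array designs, called MA and MB after the endings of the array titles. That was 14 of 45265 probe sets. There were 4 for Tpm1, of which 1 was on MB, 4 for Tpm2, 5 for Tpm3 and 1 for Tpm4, and no probe set with several symbols named a tropomyosin.

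The arrays measured total RNA of C2C12 cells, an established mouse line of skeletal myoblasts that fuses into myotubes when serum is lowered. The cells had been transduced with empty pSuperR or with pSuperR carrying a short hairpin RNA (shRNA) against p68. This protein, the product of Ddx5, is an RNA helicase of the DEAD-box family with known roles in transcription and splicing. They were kept in growth medium (GM) or in differentiation medium (DM), which gave 4 groups of 3 arrays on each design: GM vector, GM shRNA, DM vector and DM shRNA. The line, the vector backbone and its transduction were shared by all 4 groups. The time in DM, the hairpin sequence and whether the cells were clones or pools were not given in the sources used here. The labels do not say that replicates were separate cultures. All p-values therefore rest on the spread among arrays alone, and that spread may be technical. In bulk RNA, fewer cells of a type and less RNA per cell cannot be told apart.

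The values are MAS5 signals, 1 intensity for each probe set and array, scaled so that the arrays have a common mean. Tests were made with limma on log2(signal + 15), and a difference was called where the Benjamini-Hochberg adjusted p over all probe sets of the design was under 0.05. A log2 change on this scale understates the change of probe sets with low signal, and signals of different probe sets cannot be set against each other. On the MA design 14367 probe sets reached a signal of 30 on at least 3 of the 12 arrays and were tested, and on MB 19303. All 14 tropomyosin probe sets were among them, and 11 of them were at or above 30 on every array. The Tpm3 probe set 1449997_at reached 30 on 6 arrays only, all of them in DM, so its difference between media is in part fixed by that filter and it lends no support to a count.

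No array stood far from its group. The mean correlation of an MA array with the others of its group ran from 0.951 in DM vector replicate 3 to 0.983, and that of an MB array from 0.825 in DM vector replicate 2 to 0.886. The muscle markers Myog, Myod1, Ckm, Myh3, Des and Acta1, 6 of 6, rose in DM in vector cells by limma. Of all MA probe sets 23.9% were called higher in that comparison. Myh3 had mean signals of 3.18 in GM vector and 2.35 in GM shRNA cells, so its rise is in part fixed by the filter. The Ddx5 probe set with the lowest adjusted p, 1419653_a_at, was lower with the shRNA in DM by a log2 change of -0.68 (SE 0.15, limma adjusted p = 0.00677), and in GM its log2 change of -0.31 was not called (limma adjusted p = 0.287). The other 5 Ddx5 probe sets were not called in either medium, with log2 changes from -0.49 to -0.07 in GM and from -0.48 to 0.01 in DM. Of these, 1423645_a_at was at -0.49 in GM (limma adjusted p = 0.135) and -0.48 in DM (0.0869). The lowering of the targeted transcript was thus called in 1 of 6 probe sets and in DM alone. For 1419653_a_at a difference between media was not called (interaction -0.38, limma adjusted p = 0.332).

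Promoter choice is one of the ways in which tropomyosin isoforms differ, so the windows just upstream of the annotated starts are shown for the genes whose probe sets moved in opposite directions. RefSeq lists 10 curated mRNAs for Tpm1, 3 for Tpm2, 7 for Tpm3 and 1 for Tpm4. Its start table for GRCm38.p6 holds 1 start each for Tpm1, Tpm2 and Tpm4 and 2 for Tpm3, which lie 6870 bases apart on chromosome 3. The 250 bases before each listed start are printed 5′ to 3′ on the strand of the gene, with every E-box (CANNTG, which reads the same on both strands and is the motif of myogenic factors such as MyoD) in capitals: chr9:67049214-67049463 (minus strand) for Tpm1, chr3:90072401-90072650 (plus strand) for the upstream Tpm3 start and chr3:90079271-90079520 (plus strand) for the downstream one.
Tpm1: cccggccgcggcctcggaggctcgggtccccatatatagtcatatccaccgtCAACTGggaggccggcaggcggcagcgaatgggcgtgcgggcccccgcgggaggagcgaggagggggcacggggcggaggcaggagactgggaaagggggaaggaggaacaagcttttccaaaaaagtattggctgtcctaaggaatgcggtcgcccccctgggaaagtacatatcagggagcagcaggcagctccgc
Tpm3 upstream start: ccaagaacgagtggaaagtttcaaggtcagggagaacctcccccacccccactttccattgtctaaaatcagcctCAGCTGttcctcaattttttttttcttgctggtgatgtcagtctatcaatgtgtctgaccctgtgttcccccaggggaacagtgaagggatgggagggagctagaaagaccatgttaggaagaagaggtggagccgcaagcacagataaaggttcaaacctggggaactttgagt
Tpm3 downstream start: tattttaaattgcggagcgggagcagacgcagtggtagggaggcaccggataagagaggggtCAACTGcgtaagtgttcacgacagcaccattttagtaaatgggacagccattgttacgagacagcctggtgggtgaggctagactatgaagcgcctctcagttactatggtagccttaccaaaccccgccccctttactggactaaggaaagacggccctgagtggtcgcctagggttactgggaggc
Each of these 3 windows held 1 E-box, as did that of Tpm2, and the Tpm4 window held 0. An E-box was present in 66.2% of all 32851 promoter windows of this length in the table, so its presence does not set these genes apart. The MCAT motif CATTCC, searched on both strands, was found once in the Tpm1 window, apart from the E-box, and not in the other tropomyosin windows, against 12.6% of all windows. The CArG box and the MEF2 site were found in none of the 5 windows and in 1.47% and 2.92% of all. Which start, exon or isoform each probe set reads was not given in the sources used here, so none of the probe sets is assigned to a window.

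**Figure D1:**
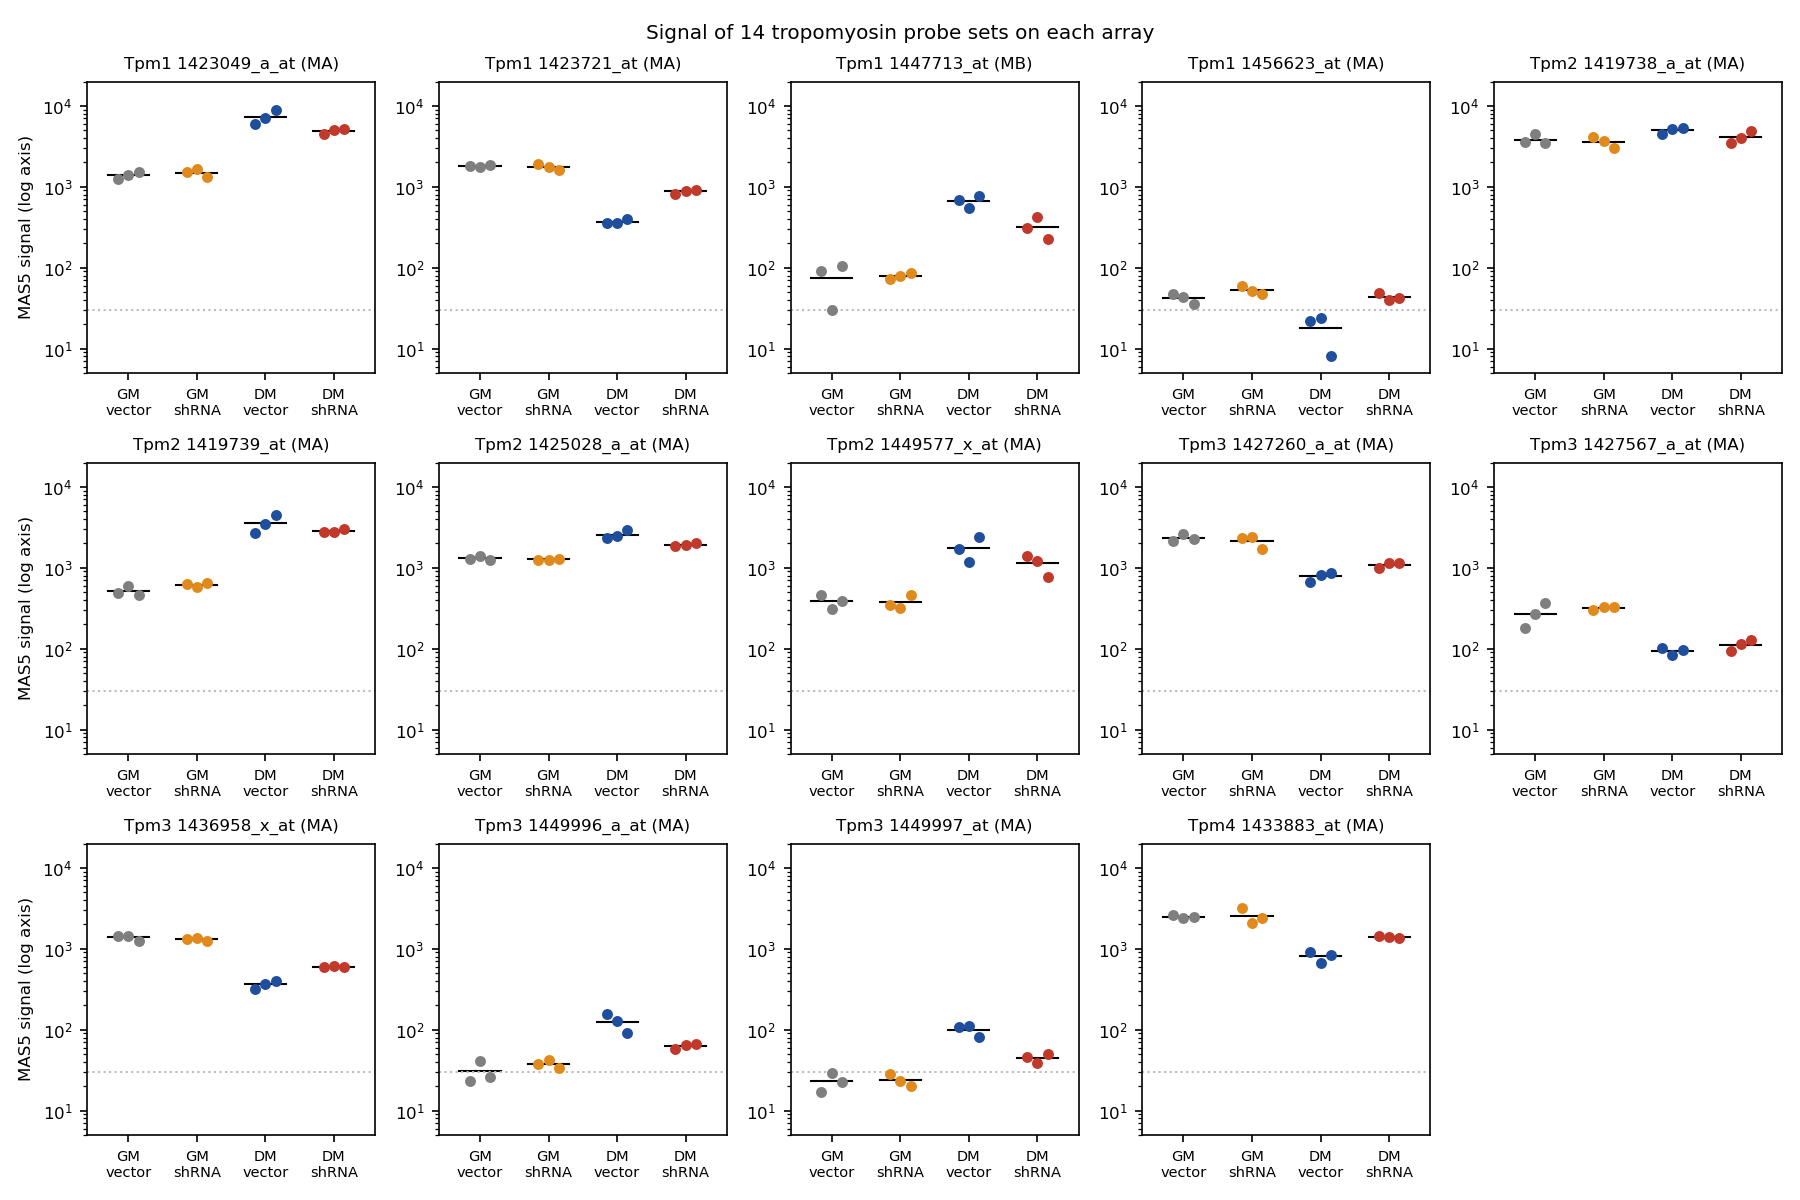
MAS5 signal (log axis) of each of the 14 tropomyosin probe sets on each array, by group. Points are arrays, 3 in each group, black bars are group means and the dotted line is the signal of 30 used as a filter; within Tpm1 and within Tpm3 some panels step up from GM to DM and others step down, while the 4 Tpm2 panels all have their highest mean in DM vector cells.

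The first comparison asks how tropomyosin transcripts changed when vector cells went from growth to differentiation medium. All 13 MA probe sets were called, 7 higher and 6 lower in DM, with log2 changes from -2.24 to 2.73. The direction followed the gene only in part: all 4 Tpm2 probe sets were higher and the Tpm4 probe set was lower, while Tpm1 and Tpm3 had probe sets in both directions. Among all MA probe sets 49.3% were called, 23.9% higher and 25.4% lower. Without 1449997_at, whose change the filter fixed in part, 12 of 12 were called, 6 in each direction. The groups did not overlap in 12 of 13, against 53.9% of all. The median log2 change of the 13 was 0.39, and that of all tested probe sets 0.01. On MB, where 9.21% of probe sets were called and 4.21% were called higher, the Tpm1 probe set was higher. In shRNA cells 11 of 13 were called, 6 higher and 5 lower (10 of 12, 5 in each direction, without 1449997_at), against 33.9% of all MA probe sets, 16.3% higher and 17.5% lower. The groups did not overlap in 11, against 50.6% of all. The MB probe set was again higher, against 4.85% called and 2.27% higher on that design.

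Tpm1 encodes the alpha tropomyosin of striated muscle and, from an internal promoter and other exons, several cytoskeletal forms. Probe set 1423049_a_at, whose suffix marks probes shared by transcripts of one gene, read 1253, 1384 and 1527 on the GM vector arrays and 6041, 6999 and 8890 on the DM vector arrays. On the GM shRNA arrays it read 1521, 1659 and 1304, and on the DM shRNA arrays 4428, 4992 and 5134. Both media stood apart in both constructs, and the DM shRNA arrays all lay below the DM vector arrays. The rise in DM was 5.17-fold in vector cells (log2 change 2.37, SE 0.14, limma adjusted p = 3.66e-09) and 3.23-fold in shRNA cells (log2 change 1.69, limma adjusted p = 3.53e-07).

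The Tpm1 probe set 1423721_at went the other way. It read 1816, 1752 and 1849 on the GM vector arrays and 356.0, 359.1 and 395.8 on the DM vector arrays. With the shRNA it read 1912, 1754 and 1620 in GM and 823.4, 880.1 and 921.7 in DM. The GM arrays of both constructs overlapped, whereas every DM shRNA array was above every DM vector array and below every GM array. The level in DM was 0.211 times that in GM in vector cells (log2 change -2.24, SE 0.10, limma adjusted p = 1.51e-10) and 0.501 times in shRNA cells (log2 change -0.996, limma adjusted p = 2.13e-06).

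The MB probe set 1447713_at behaved as the first. It read 90.78, 30.34 and 105.2 on the GM vector arrays, 677.7, 541.2 and 780.3 on the DM vector arrays, 72.28, 78.00 and 85.63 on the GM shRNA arrays and 312.7, 425.8 and 226.1 on the DM shRNA arrays. Signal in DM was 8.10-fold higher in vector cells (log2 change 3.02, SE 0.34, limma adjusted p = 5.75e-06) and 3.49-fold higher in shRNA cells (log2 change 1.80, limma adjusted p = 0.00255). The fourth Tpm1 probe set, 1456623_at, was near the filter throughout. Its signal was 35.52 to 47.37 on the GM vector arrays, 8.11 to 23.87 on the DM vector arrays, 47.84 to 60.24 on the GM shRNA arrays and 39.87 to 49.25 on the DM shRNA arrays. It fell in vector cells (log2 change -0.83, limma adjusted p = 0.00403), and in shRNA cells its log2 change of -0.21 was not called (limma adjusted p = 0.476). The 3 DM vector arrays, all under 30, were the ones that stood apart.

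Tpm2 encodes the beta tropomyosin of striated muscle, and its cytoskeletal forms arise by splicing of internal exons. Its 4 probe sets agreed in direction and differed in size. Probe set 1419739_at read 492.8, 591.2 and 457.5 on the GM vector arrays and 2665, 3492 and 4501 on the DM vector arrays. On the shRNA arrays it read 629.5, 575.0 and 647.9 in GM and 2735, 2751 and 3033 in DM. GM and DM did not overlap, and within DM the constructs did. Its rise was 6.63-fold in vector cells (log2 change 2.73, SE 0.16, limma adjusted p = 2.65e-09) and 4.51-fold in shRNA cells (log2 change 2.17, limma adjusted p = 7.89e-08).

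Probe set 1449577_x_at, whose suffix marks probes that may also match other sequences, was the most scattered of the Tpm2 probe sets. Its signal was 310.4 to 455.7 on the GM vector arrays, 1180 to 2431 on the DM vector arrays, 314.4 to 464.1 on the GM shRNA arrays and 767.5 to 1398 on the DM shRNA arrays. It rose by a log2 change of 2.12 in vector cells (SE 0.25, limma adjusted p = 6.8e-06) and of 1.53 in shRNA cells (limma adjusted p = 0.000305). Probe set 1425028_a_at moved less, from 1240 to 1402 in GM vector cells up to 2312 to 2971 in DM vector cells, a log2 change of 0.96 (SE 0.11, limma adjusted p = 2.81e-06). In shRNA cells it ran from 1257 to 1293 in GM and from 1855 to 2052 in DM, a log2 change of 0.60 (limma adjusted p = 0.00049). Of the Tpm2 probe sets, 1419738_a_at had the smallest change and also the brightest signal, although brightness is not comparable between probe sets.

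The values of 1419738_a_at were 3531, 4447 and 3480 on the GM vector arrays and 4431, 5187 and 5339 on the DM vector arrays, so these groups overlapped. They were 4152, 3636 and 2973 on the GM shRNA arrays and 3520, 4012 and 4879 on the DM shRNA arrays. The log2 change of 0.39 in vector cells (SE 0.15, limma adjusted p = 0.0439) was lost without any one of DM vector replicate 2 (adjusted p = 0.114) or 3 (0.0967), GM vector replicate 1 (0.138) or 4 (0.144), DM shRNA replicate 2 (0.0577) or GM shRNA replicate 3 (0.0529), with limma. It was also lost with no filter on low signal, with arrays centred on their medians, without the mean-variance trend and with the replicate number as a block. The shRNA cells gave a log2 change of 0.21 that was not called (limma adjusted p = 0.323).

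Tpm3 encodes the tropomyosin of slow muscle fibres and, from a downstream promoter, abundant cytoskeletal forms. Its 5 probe sets fell into a falling set of 3 and a rising set of 2, a description made after their values were seen. Probe set 1436958_x_at has the suffix that marks probes that may also match other sequences. It read 1454, 1423 and 1266 on the GM vector arrays and 317.7, 370.2 and 398.5 on the DM vector arrays. On the shRNA arrays it read 1309, 1353 and 1249 in GM and 598.5, 609.1 and 604.0 in DM. As for Tpm1 1423721_at, the DM shRNA arrays lay between the other DM arrays and all GM arrays, without overlap on either side. The level in DM was 0.269 times that in GM in vector cells (log2 change -1.89, SE 0.10, limma adjusted p = 1.75e-09) and 0.470 times in shRNA cells (log2 change -1.09, limma adjusted p = 1.63e-06).

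Probe set 1427260_a_at read 2125, 2580 and 2279 on the GM vector arrays, 674.7, 822.9 and 850.8 on the DM vector arrays, 2318, 2383 and 1685 on the GM shRNA arrays and 992.8, 1140 and 1142 on the DM shRNA arrays. The fall in DM was -1.56 on the log2 scale in vector cells (SE 0.14, limma adjusted p = 3.58e-07) and -0.94 in shRNA cells (limma adjusted p = 0.000118). The third falling probe set, 1427567_a_at, read 182.4, 265.4 and 365.5 on the GM vector arrays, 101.6, 84.27 and 97.71 on the DM vector arrays, 297.7, 328.4 and 325.7 on the GM shRNA arrays and 92.79, 113.1 and 127.2 on the DM shRNA arrays. It fell in both constructs, by a log2 change of -1.34 (SE 0.19, limma adjusted p = 4.01e-05) in vector cells and -1.41 (limma adjusted p = 5.33e-05) in shRNA cells. In this probe set alone among those of Tpm3, the DM arrays of both constructs overlapped.

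The rising Tpm3 probe sets had low signals. Probe set 1449996_a_at read 23.44, 41.65 and 26.34 on the GM vector arrays, 157.0, 127.8 and 91.56 on the DM vector arrays, 37.73, 42.49 and 33.93 on the GM shRNA arrays and 57.34, 65.47 and 66.99 on the DM shRNA arrays. Probe set 1449997_at read 16.97, 29.52 and 22.65, then 108.7, 111.1 and 81.01, then 28.76, 23.47 and 20.35, and then 45.69, 38.64 and 50.01 in the same order of groups. In both probe sets the DM vector arrays were the highest, the DM shRNA arrays came next and the GM arrays of both constructs overlapped at the bottom. In vector cells the rise of 1449996_a_at was a log2 change of 1.62 (SE 0.20, limma adjusted p = 7.67e-06) and that of 1449997_at 1.60 (SE 0.19, limma adjusted p = 4.71e-06). In shRNA cells the log2 changes were 0.56 (limma adjusted p = 0.0393) and 0.61 (limma adjusted p = 0.0194). The first of these shRNA calls was lost without any one of DM shRNA replicates 1, 2 and 3, DM vector replicate 2 and GM shRNA replicates 2, 3 and 4, where limma's adjusted p lay between 0.0503 and 0.116. The second was lost without DM shRNA replicate 1 or 3 or GM shRNA replicate 3 or 4, where it lay between 0.0509 and 0.0734. With the replicate number as a block, limma's adjusted p was 0.112 and 0.0596, and the first was also lost with no filter (0.0762), quantile normalization (0.0612) or median centring (0.0551).

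Tpm4 encodes a tropomyosin of the cytoskeleton, and 1433883_at was its only probe set. It read 2588, 2431 and 2470 on the GM vector arrays and 912.3, 676.3 and 849.6 on the DM vector arrays. On the shRNA arrays it read 3218, 2055 and 2390 in GM and 1431, 1409 and 1358 in DM. The DM shRNA arrays again lay between the DM vector arrays and the GM arrays, without overlap. The level in DM was 0.327 times that in GM in vector cells (log2 change -1.61, SE 0.15, limma adjusted p = 3.84e-07) and 0.560 times in shRNA cells (log2 change -0.84, limma adjusted p = 0.000468).

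**Figure D2:**
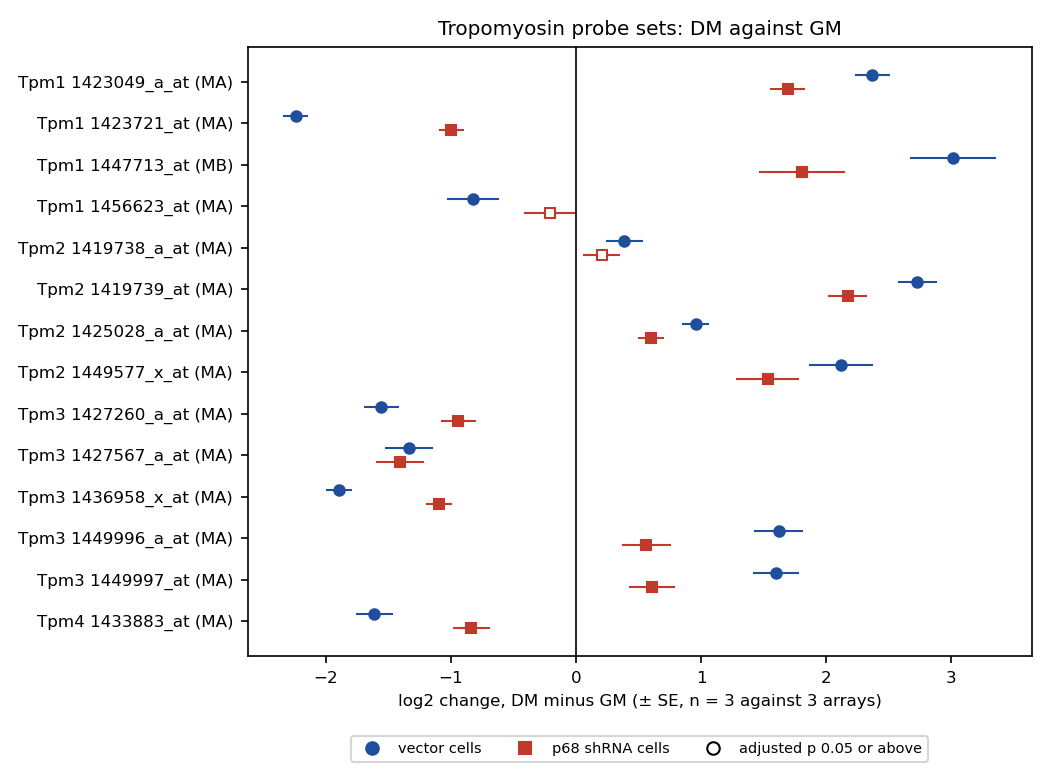
Log2 change from GM to DM for each tropomyosin probe set, in vector cells (circles) and in p68 shRNA cells (squares), on the log2(signal + 15) scale. Points are limma estimates, bars are 1 SE from 3 against 3 arrays and open symbols have an adjusted p of 0.05 or above; Tpm1 and Tpm3 have points on both sides of 0, and most squares lie nearer to 0 than their circles.

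Whether probe sets of one gene changed unequally was tested from the log2 difference between them on each MA array. The log2(signal + 15) scale understates changes at low signal. A pair with a low probe set can therefore move although both signals changed by the same fold. There were 19 pairs, 3 within Tpm1, 6 within Tpm2 and 10 within Tpm3. Medium labels were permuted within each construct, in an exact two-sided test of 400 arrangements whose smallest p is 0.005, with Benjamini-Hochberg adjustment over the 19 pairs. The difference moved with medium in 16 of 19 pairs. Without 1449997_at there were 15 pairs, of which 13 moved. Among them Tpm1 1423721_at minus 1456623_at moved by -1.10 (exact permutation adjusted p = 0.00792), where 1456623_at read 8.11 to 23.87 on the DM vector arrays. The share that moves among pairs of other genes was not worked out, so these counts have no background. Pairs of one gene share probe sets and are not separate results. The 3 pairs that were not called lay within Tpm3. For the rising pair 1449996_a_at minus 1449997_at the change was -0.01 (exact permutation adjusted p = 0.885). For 1427260_a_at minus 1427567_a_at it was 0.12 over both constructs (exact permutation adjusted p = 0.62), from -0.22 in vector cells and 0.47 in shRNA cells. For 1427567_a_at minus 1436958_x_at it was also 0.12 (exact permutation adjusted p = 0.676), from 0.55 in vector cells and -0.32 in shRNA cells. These averages near 0 hold opposite signs in the constructs, and that difference between constructs was not tested for the pairs. The falling Tpm3 probe sets minus the rising 1449996_a_at moved by -2.34, -2.46 and -2.58 on the log2 scale, each at the smallest p possible (exact permutation adjusted p = 0.00792). The same 3 minus 1449997_at gave -2.35, -2.48 and -2.60, which the filter fixed in part. Falling and rising were named from these same arrays, and in each of these probe sets GM and DM did not overlap in either construct. The p of a falling minus a rising probe set was therefore fixed in advance. It adds no support, and these pairs lend none to the counts.

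The largest difference in Tpm1 was between 1423049_a_at and 1423721_at. It grew from GM to DM by 3.65 on the log2 scale, 4.61 in vector cells and 2.69 in shRNA cells (exact permutation adjusted p = 0.00792). These probe sets moved in opposite directions without overlap in both constructs, so that p was fixed by their values and adds no support. Relative to the GM vector mean, the difference stood at 4.41, 4.61 and 4.82 on the DM vector arrays and at 2.79, 2.86 and 2.84 on the DM shRNA arrays, which did not overlap. In Tpm2, where no probe set fell, 1419738_a_at still lost ground to 1419739_at by -2.16 (exact permutation adjusted p = 0.00792). Here the DM vector arrays, at -2.13, -2.29 and -2.61, and the DM shRNA arrays, at -2.49, -2.32 and -2.17, overlapped. For Tpm3 1436958_x_at against 1449997_at the change was -2.60, with -3.78, -3.60 and -3.10 on the DM vector arrays and -1.87, -1.67 and -1.96 on the DM shRNA arrays (exact permutation adjusted p = 0.00792). The last probe set is the one whose change the filter fixed in part, and the p of this pair of a falling and a rising probe set was fixed in advance. The other rising probe set, 1449996_a_at, gave -2.58 against 1436958_x_at.

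The same differences were tested between constructs, with construct labels permuted within each medium. None of the 19 pairs was called (lowest exact permutation adjusted p = 0.222), and 3 had an unadjusted p under 0.05. This test averages over both media, which differed in value. For Tpm1 1423049_a_at minus 1423721_at the shRNA minus vector value was 0.14 in GM and -1.78 in DM, and for Tpm3 1436958_x_at minus 1449997_at it was -0.13 in GM and 1.66 in DM. For Tpm2 1419738_a_at minus 1419739_at it was -0.36 in GM and 0.01 in DM. In the Tpm1 and Tpm3 pairs the DM arrays of both constructs did not overlap, and no test within DM alone was made.

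**Figure D3:**
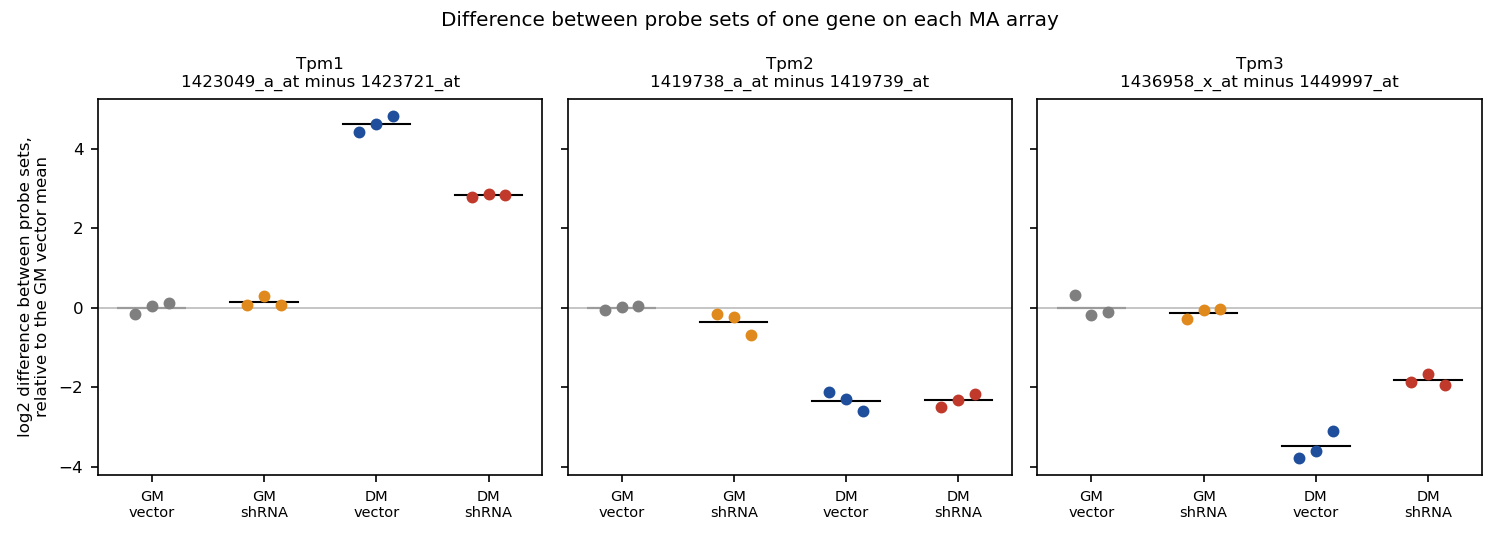
Log2 difference between 2 probe sets of one gene on each MA array, relative to its mean over the GM vector arrays, for the pair of each gene that differed most between media. Points are arrays, 3 in each group, and bars are group means; in Tpm1 and Tpm3 the DM shRNA arrays lie between GM and DM vector, and in Tpm2 the DM arrays of both constructs overlap.

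The next comparison asks what the p68 shRNA did within a medium. In DM, 9 of 13 MA probe sets were called, 5 higher and 4 lower with the shRNA, against 16.9% of all MA probe sets, 10.7% higher and 6.24% lower. The groups did not overlap in 9, against 30.7% of all. In vector cells the 5 that were higher with the shRNA had fallen on the move to DM, and the 4 that were lower had risen. These comparisons share the DM vector arrays, so the opposition of signs is a description and not a separate result. Among those higher with the shRNA, Tpm1 1423721_at differed 2.31-fold (log2 change 1.21, SE 0.10, limma adjusted p = 2.14e-06), Tpm4 1433883_at 1.72-fold (log2 change 0.78, SE 0.15, limma adjusted p = 0.00186) and Tpm3 1436958_x_at 1.65-fold (log2 change 0.72, SE 0.10, limma adjusted p = 0.000267). These 3 calls were kept without each array in turn. The low probe set Tpm1 1456623_at was higher by a log2 change of 0.87 (limma adjusted p = 0.00935), and not called when only the DM arrays entered the fit (0.0551).

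Tpm3 1427260_a_at was higher by 0.48 (SE 0.14, limma adjusted p = 0.0297). That call was lost without DM shRNA replicate 2 (limma adjusted p = 0.104) or 3 (0.0939) or DM vector replicate 1 (0.0933), with arrays centred on their medians (0.112) and without the trend (0.0599). Among those lower with the shRNA were the rising probe sets of Tpm1 and Tpm3: 1423049_a_at by a log2 change of -0.57 (SE 0.14, limma adjusted p = 0.0103), 1449996_a_at by -0.82 (SE 0.20, limma adjusted p = 0.00978) and 1449997_at by -0.94 (SE 0.19, limma adjusted p = 0.00268). These 3 calls too were kept without each array in turn. Of Tpm2, 1425028_a_at alone was called, at -0.40 (SE 0.11, limma adjusted p = 0.0157), and not without DM shRNA replicate 1 (0.0607) or 2 (0.0603) or with only the DM arrays in the fit (0.0806). The other Tpm2 probe sets had log2 changes of -0.28, -0.29 and -0.62 with limma adjusted p = 0.241, 0.236 and 0.116. Probe set 1419739_at was called without DM vector replicate 1 (-0.48, limma adjusted p = 0.0232) and 1449577_x_at without DM vector replicate 2 (-0.88, limma adjusted p = 0.0329). The remaining Tpm3 probe set, 1427567_a_at, had a log2 change of 0.20 (limma adjusted p = 0.551).

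The MB probe set of Tpm1 had a log2 change of -1.05 (SE 0.34) in DM, its groups did not overlap, and it was not called (limma adjusted p = 0.202). Of all MB probe sets 1.17% were called and 13.8% did not overlap in that comparison. The typical residual SD was 0.523 on MB against 0.214 on MA, so a change of a given size is harder to call there.

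In GM no tropomyosin probe set was called by limma, 0 of 13 on MA and 0 of 1 on MB, and 0 of 13 had an unadjusted p under 0.05. Over all probe sets 6.56% were called on MA and 0.275% on MB. The log2 changes on MA ran from -0.14 for Tpm3 1427260_a_at to 0.27 for 1427567_a_at. The groups stood apart in 1 probe set, Tpm1 1456623_at, with 35.52 to 47.37 in vector cells and 47.84 to 60.24 in shRNA cells (log2 change 0.25, limma adjusted p = 0.558), against 30% of all MA probe sets. Probe sets whose GM change was near 0 have no settled sign under other scalings.

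**Figure D4:**
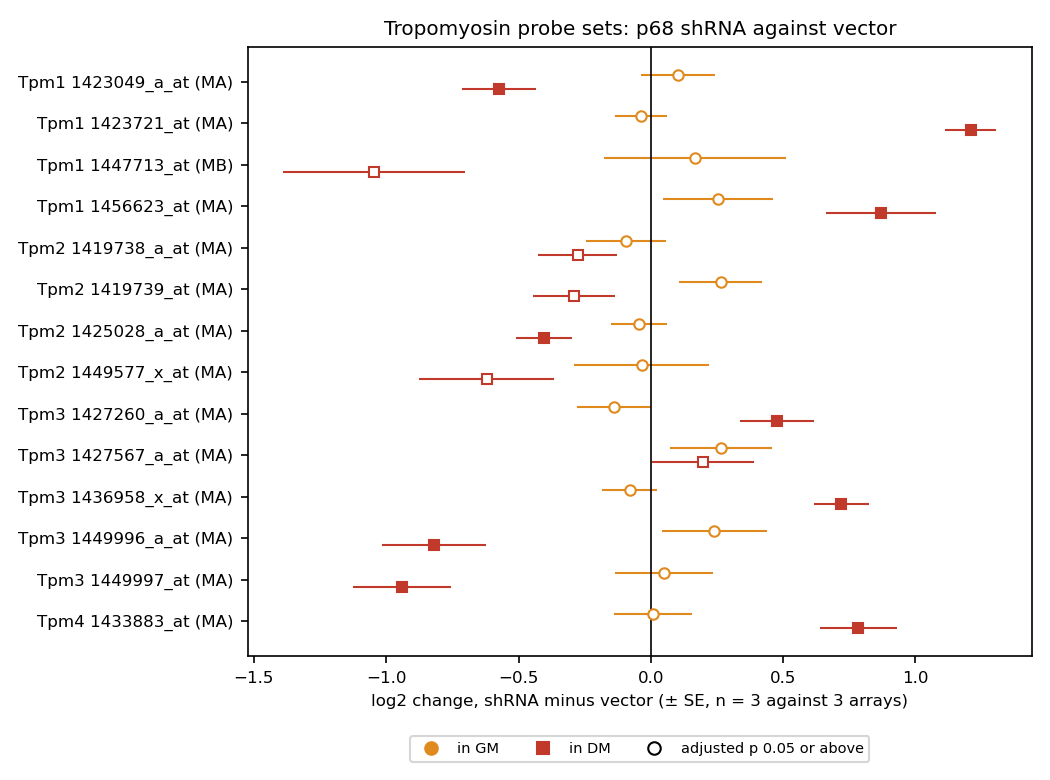
Log2 change from vector to p68 shRNA for each tropomyosin probe set, in GM (circles) and in DM (squares), on the log2(signal + 15) scale. Points are limma estimates, bars are 1 SE from 3 against 3 arrays and open symbols have an adjusted p of 0.05 or above; all GM points are open and lie between -0.14 and 0.27, and the DM points reach 1.21 on one side and -1.05 on the other.

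Whether the change from GM to DM differed between the constructs was tested with the interaction term of the same limma fit, which gives the log2 change in shRNA cells minus that in vector cells. On MA 6 of 13 were called, 3 positive and 3 negative (5 of 12, 3 and 2, without 1449997_at), against 9.95% of all MA probe sets, 5.48% positive and 4.48% negative. The positive ones were Tpm1 1423721_at at 1.25 (SE 0.14, limma adjusted p = 7.45e-05), Tpm3 1436958_x_at at 0.80 (SE 0.15, limma adjusted p = 0.0034) and Tpm4 1433883_at at 0.78 (SE 0.21, limma adjusted p = 0.0283), each of which fell in DM. The negative ones were Tpm1 1423049_a_at at -0.68 (SE 0.20, limma adjusted p = 0.0427), Tpm3 1449996_a_at at -1.06 (SE 0.28, limma adjusted p = 0.0265) and Tpm3 1449997_at at -0.99 (SE 0.26, limma adjusted p = 0.027), each of which rose in DM. In all 6 the response to DM was smaller in the shRNA cells.

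The calls for 1423721_at and 1436958_x_at were kept without each of the 12 arrays in turn and under each of the 8 other settings, with limma's adjusted p no higher than 0.000684 and 0.0138. The other 4 were not as firm. The call for 1433883_at was kept only without DM vector replicate 1 or 3 or GM shRNA replicate 2, and over the 12 omissions limma's adjusted p ran from 0.00579 to 0.071. That for 1423049_a_at was kept without DM vector replicate 1 or 3, GM shRNA replicate 4 or GM vector replicate 4 (range 0.0128 to 0.11). For 1449996_a_at it was kept without DM shRNA replicate 3, DM vector replicate 3, GM shRNA replicate 4 or GM vector replicate 3 (range 0.00491 to 0.0711), and for 1449997_at also without DM shRNA replicate 1 (range 0.0106 to 0.0751). With the replicate number as a block, 1449996_a_at (limma adjusted p = 0.0544) and 1449997_at (0.0635) were lost. With median centring 1423049_a_at was lost (limma adjusted p = 0.0583), and without the trend 1423049_a_at (0.083) and 1433883_at (0.0583) were. With no filter on low signal 2 of the 6 were called, and leaving out arrays gave 2 to 7 calls.

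The remaining 7 included Tpm3 1427260_a_at at 0.62 (limma adjusted p = 0.0648), which was called with the replicate number as a block (0.71, adjusted p = 0.00996) and without DM vector replicate 3 (adjusted p = 0.0376). Tpm2 1419739_at, at -0.56 (limma adjusted p = 0.137), was called without DM vector replicate 1 (adjusted p = 0.017). No Tpm2 probe set was called as the data stand, and their interaction estimates ran from -0.18 to -0.59. The lowest of the interaction estimates in size was that of 1427567_a_at, at -0.07 (SE 0.27, limma adjusted p = 0.913). The MB probe set was at -1.21 (SE 0.49, limma adjusted p = 0.474), where 0.389% of MB probe sets were called.

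The order of the group means shows the same pattern without a test. The DM shRNA mean lay between the GM vector and the DM vector mean in 12 of 13 MA probe sets and in the MB probe set. That is common in these data: it held for 75.5% of the 7078 MA probe sets called between media in vector cells and for 52.7% of all tested. On MB it held for 83.2% of the 1778 called and for 41.4% of all tested. The exception on MA was Tpm1 1456623_at, whose DM shRNA mean of 43.9 was above its GM vector mean of 42.3, with overlapping arrays. In 4 falling probe sets, Tpm1 1423721_at, Tpm3 1427260_a_at and 1436958_x_at and Tpm4 1433883_at, the DM shRNA arrays overlapped neither neighbour in that order. The same held for 5 rising ones, Tpm1 1423049_a_at and 1447713_at, Tpm2 1425028_a_at and Tpm3 1449996_a_at and 1449997_at. That is 8 of 13 on MA, where 11.9% of all tested probe sets and 23.2% of those called between media in vector cells had such an order, and 1 of 1 on MB (2.01% and 20.4%). Both the 12 and the 8 on MA include Tpm3 1449997_at, whose change the filter fixed in part, so it lends these counts no support.

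Few genes had probe sets called in opposite directions within one comparison. Among the 3096 genes with at least 2 tested MA probe sets, 93 (3.00%) did so between media in vector cells and 18 (0.581%) in shRNA cells, and Tpm1 and Tpm3 were among both. In shRNA cells the place of Tpm3 rests on the rising probe sets 1449996_a_at and 1449997_at, whose calls were both lost with the replicate block (limma adjusted p = 0.112 and 0.0596) and when certain single arrays were left out. Between shRNA and vector in DM there were 3 such genes (0.0969%), Tpm1, Tpm3 and Eps8, an actin-capping and bundling protein. In the interaction there were 2 (0.0646%), and they were Tpm1 and Tpm3. Genes with more probe sets have more chances to qualify, and among the 1019 with at least 3 the counts in these 4 comparisons were 59, 13, 3 and 2. In the interaction the negative member of each gene is among the calls that were lost without some arrays, so the count of 2 rests on them.

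For each MA probe set the most similar others were found by the root mean square difference of centred log2 values over the 12 arrays, as a description. Tpm1 1423721_at was nearest to Stmn1, a tubulin-binding protein (0.107), Cks1b, a cyclin-dependent kinase subunit (0.111), and Chaf1b, a chromatin assembly factor subunit (0.115). Tpm1 1423049_a_at was nearest to Sgca, the sarcoglycan alpha of the muscle membrane complex (0.115), Herpud1 (0.119) and Alpk3 (0.12). Tpm2 1419739_at was nearest to Dag1, dystroglycan (0.211), Ldb3, a Z-disc protein (0.233), and Hspb8, a small heat shock protein (0.238). Both rising Tpm3 probe sets had Tm9sf2 as the nearest, at 0.155 and 0.114. For Tpm4 the nearest was Exo1, an exonuclease of DNA repair (0.144), with Shisa5 (0.151) and Papss1 (0.156) close behind. The nearest of the other Tpm2 probe sets were Fibp for 1419738_a_at (0.113), Prune1 for 1425028_a_at (0.0979) and Fxyd1 for 1449577_x_at (0.304). For the falling Tpm3 probe sets they were Cmc2 for 1427260_a_at (0.118), Csrp1 for 1427567_a_at (0.208) and Tmem98 for 1436958_x_at (0.117). Tpm1 1456623_at was nearest to Nlgn2 (0.143).

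Among the tropomyosins themselves the closest pair was the rising Tpm3 pair (0.151), followed by Tpm3 1427260_a_at with 1436958_x_at (0.195) and then, across genes, Tpm1 1423721_at with Tpm3 1436958_x_at (0.204). Tpm4 1433883_at came closest to that same Tpm3 probe set (0.242), and Tpm2 1419739_at to Tpm1 1423049_a_at (0.288). By contrast the opposed Tpm1 probe sets differed by 1.94 and the opposed Tpm3 probe sets by up to 1.44. All probe sets share the same 12 RNA samples, so these distances are no test of a shared behaviour.

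Tropomyosins were set beside other proteins of the filaments they bind, from lists chosen with earlier results of these data known. Of 15 listed genes of the sarcomeric thin filament, 12 were measured on MA and all 12 rose in DM in vector cells, with a median log2 change of 5.59, as did all 12 in shRNA cells (median 5.60), against 23.9% and 16.3% of all MA probe sets called higher. They included the troponins Tnnc2 (log2 change 7.17, SE 0.18), Tnni2 (6.86, SE 0.16), Tnni1 (6.77, SE 0.18) and Tnnt3 (6.72, SE 0.15), which bind calcium, inhibit, or tie the complex to tropomyosin. The rises of tropomyosin probe sets, at most 2.73 on MA and 3.02 on MB, were smaller numbers. With the shRNA in DM 8 of the 12 were lower and 0 higher (median -0.63), against 6.24% of all called lower, among them Tnni2 (-1.28) and Tnnt3 (-0.99). In GM 2 of 12 were lower, Tnni2 (-1.43) and Tnnt2 (-1.07), where 6.56% of all MA probe sets were called in either direction. The mean GM signal of Tnni2 was 40.2 with the vector and 5.60 with the shRNA, so this change lies near the floor. In the interaction 2 were negative, Tmod1 (-0.99), the pointed-end capping protein, and Tnnt3 (-0.74), against 4.48% of all.

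Of 22 listed genes of the cytoskeletal actin filament, 21 were measured. In vector cells 16 fell and 2 rose in DM (median -0.97), against 25.4% and 23.9% of all, led by Flna, an actin cross-linker (-2.47, SE 0.10), Tagln2 (-2.28, SE 0.12), Fscn1, a bundling protein (-2.25, SE 0.16), and the calponin Cnn2 (-1.96, SE 0.11). In shRNA cells 12 fell and 1 rose (median -0.52), against 17.5% and 16.3% of all. With the shRNA in DM 10 were higher and 0 lower (median 0.38), against 10.7% and 6.24% of all, among them Gsn, gelsolin (1.14), Fscn1 (1.01), Myl12b (0.88) and Flna (0.73). In the interaction 8 were positive and 0 negative (median 0.47), against 5.48% and 4.48% of all. Among the positive ones were Fscn1 at 1.13, Flna at 0.98, Tagln2 at 0.98 and Cfl1, cofilin, at 0.81. In GM 1 was higher, Gsn (0.48), and 1 lower, Tagln2 (-0.49), where 6.56% of all were called in either direction.

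Of 19 listed regulators of alternative splicing in muscle, 14 were measured. In vector cells 3 rose and 5 fell in DM (median -0.12), so 8 of 14 were called where 49.3% of all MA probe sets were, with Rbm38 at 2.98 (SE 0.18), Ptbp1, the polypyrimidine tract binding protein that represses muscle exons including those of tropomyosin genes, at -1.58 (SE 0.13), Srsf1 at -1.35 (SE 0.26) and Mbnl3 at -0.76 (SE 0.22). In shRNA cells 4 rose and 3 fell (median 0.30), against 33.9% of all, with Ptbp1 at -1.09. With the shRNA in DM 2 were higher, Ptbp3 (0.56) and Rbfox2 (0.47), and 1 lower, Rbm38 (-0.65), 3 of 14 against 16.9% of all. The shares called between media in vector cells and between constructs in DM lie near those of all probe sets. The interaction was positive for 1 gene, Ptbp3 (0.94), against 5.48% of all. In GM 0 of 14 were called by limma, against 6.56% of all.

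**Figure D5:**
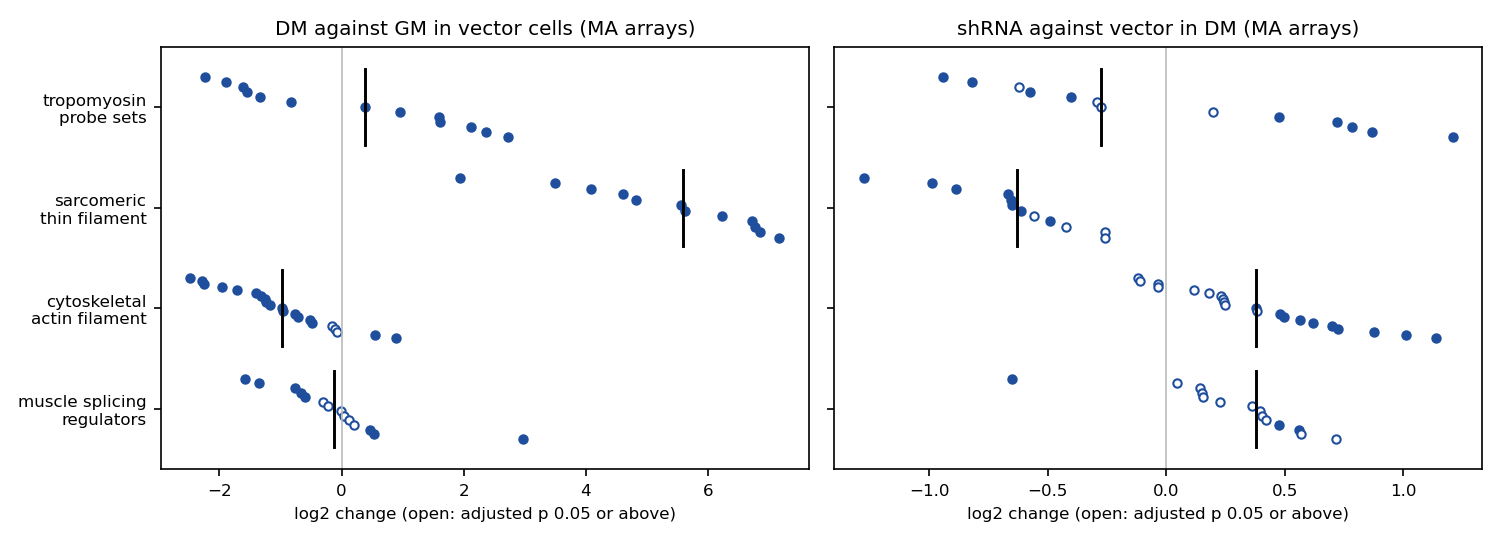
Log2 changes on the MA arrays of the 13 tropomyosin probe sets and of the genes of 3 lists, 1 probe set a gene, for DM against GM in vector cells and for shRNA against vector in DM. Points are probe sets, filled where limma's adjusted p is under 0.05, and bars are medians; the thin filament list lies wholly to the right in the first panel and the cytoskeletal list mostly to the left, and the tropomyosin probe sets lie on both sides of 0 in both panels.

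The summed signals of the muscle and proliferation markers shifted with medium, as tropomyosin probe sets did. In GM they were lower with the shRNA, without overlap between constructs, although no tropomyosin probe set was called there. The summed signal of the 6 muscle markers was 3476 to 3839 in GM vector, 2801 to 3261 in GM shRNA, 25075 to 40915 in DM vector and 21384 to 24541 in DM shRNA cells. With the shRNA in DM 3 of 6 were lower and 0 higher, against 6.24% and 10.7% of all MA probe sets. In the interaction 0 of 6 were called, against 9.95% of all. Their median log2 change from GM to DM was 5.87 in vector cells and 5.96 in shRNA cells. Of 5 proliferation markers 4 were measured, with a sum of 3154 to 3534 in GM vector, 2440 to 2708 in GM shRNA, 361 to 410 in DM vector and 1055 to 1256 in DM shRNA cells. All 4 fell in DM in vector cells, and all 4 were higher with the shRNA in DM and positive in the interaction. Over all MA probe sets those shares were 25.4%, 10.7% and 5.48%. By these sums the DM shRNA cells stood between GM and DM vector cells, as for most tropomyosin probe sets. A smaller response to DM in shRNA cells was called for the proliferation markers and not for the muscle markers. The part of this in the tropomyosin results was not tested.

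Markers of other cell types were present to differing degrees. Of 7 smooth muscle markers 6 were measured, with sums of 8827 to 9731, 7956 to 10594, 8196 to 13395 and 8778 to 10874 in GM vector, GM shRNA, DM vector and DM shRNA cells, and 1, Lmod1, was higher with the shRNA in DM, while Myh11 was not among the tested MA probe sets. In vector cells 3 of these markers fell in DM, Tagln (log2 change -1.77), Actg2 (-1.28) and Cnn1 (-1.21), and Acta2 rose (0.50). The same 3 fell in shRNA cells, by -1.71, -1.13 and -2.14, and the interaction was called for Cnn1 (-0.92). Over all MA probe sets 25.4% were called lower in DM in vector cells and 17.5% in shRNA cells. With the shRNA in DM 10.7% were called higher, and 9.95% were called in the interaction. Of 7 fibroblast markers 5 were measured, with sums of 6360 to 6817, 8397 to 9233, 5024 to 6643 and 9557 to 9970 in that order, so both shRNA groups lay above both vector groups, and 2, Col1a2 and Col3a1, were higher with the shRNA in DM. Of 5 adipocyte markers 2 were tested, Lpl and Pparg, with a sum of 186 to 262 on the GM shRNA arrays and 51.8 to 74.3 on the others, and the defining markers Adipoq, Fabp4 and Plin1 were not among the tested MA probe sets. Of 6 macrophage symbols 4 were tested, with sums of 130 to 240, Ptprc was not, and Emr1 is an older symbol of Adgre1. The part of these markers in the tropomyosin results was not tested. The log2 ratio of 3′ to 5′ control probe sets, a sign of RNA integrity, had group means from -0.02 to 0.07 on MA and from -0.04 to 0.10 on MB, highest in GM vector cells on both.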

How the data were processed

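Total RNA from C2C12 cells was measured on 24 arrays of 2 designs, 4 groups of 3 arrays each, with groups and replicate numbers taken from the array titles. The authors deposited 1 intensity for each probe set and array, made with MAS5 according to the submitters' processing notes. The MAS5 version, its settings and any detection calls were not given in the sources used here. Arrays give no molecule counts, so their number and spread limit the precision. Probe sets were named through the platform annotation of each design, and tropomyosins by the 4 symbols. The 64 control probe sets of each design were left out.

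Signals were analysed as log2(signal + 15), with a filter of signal 30 on at least 3 of 12 arrays. One limma 3.58.1 model (R 4.3.3) of 4 group means with 8 residual degrees of freedom was fitted to each design, with a mean-variance trend, Benjamini-Hochberg adjustment over all tested probe sets and a threshold of 0.05. MA and MB were fitted apart. Pairs of probe sets were tested by exact permutation. The scripts were tested on simulated data. All probe sets of the 4 genes are named. List genes are represented by the tested probe set of highest mean, and named where they lead their list. The members and lists were chosen with earlier results of these data known.

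Same-numbered MA arrays had residual correlations from -0.14 to 0.29 over 13 pairs, and MB arrays from -0.04 to 0.07 over 18, so the numbers were not taken to pair arrays. Alternatives were pseudocounts of 5 and 50, a filter of 60 or none, quantile normalization, median centring, no trend, fits of the compared groups alone, a replicate block and each array left out. Promoter windows come from the RefSeq table of GRCm38.p6.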

Additional observations from a re-analysis of the deposited data

Results flagged for a closer look

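The response to differentiation medium differed between vector and p68 shRNA cells, by the interaction term of the limma fit, in 6 tropomyosin probe sets on MA (log2 change in shRNA cells minus that in vector cells). It was positive for Tpm1 1423721_at (1.25), Tpm3 1436958_x_at (0.80) and Tpm4 1433883_at (0.78), which fell less in shRNA cells. It was negative for Tpm1 1423049_a_at (-0.68), Tpm3 1449996_a_at (-1.06) and Tpm3 1449997_at (-0.99), which rose less. The calls for 1423721_at and 1436958_x_at were kept in each of the 12 fits that left out 1 array, and the other 4 in 3 to 5 of them. Groups of 3 arrays are too small for a test of single outlying arrays.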

How the results depend on the processing

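The count of 13 probe sets called between media in vector cells was 12 to 13 when single arrays were left out, that of 11 in shRNA cells 9 to 11, that of 9 between constructs in DM 7 to 10, and that of 0 in GM stayed at 0. The count of 6 in the interaction was 2 with no filter on low signal, where more probe sets enter the adjustment, and 2 to 7 when single arrays were left out. The 16 pairs that moved with medium numbered 14 to 16, and the 0 pairs called by shRNA stayed at 0. The MB calls did not change. With the replicate number as a block the MA counts were 12, 9, 9, 0 and 5 in the order vector cells, shRNA cells, DM, GM and interaction, and the MB counts were 1, 1, 0, 0 and 0; the numbers do not pair the arrays.

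Signs changed only among values that were not called. For shRNA against vector in GM they were Tpm1 1423721_at (0.050 with quantile normalization), Tpm2 1425028_a_at (0.0019 with quantile normalization), Tpm3 1449997_at (-0.032 with quantile normalization, -0.018 with median centring), Tpm4 1433883_at (-0.060 with median centring) and Tpm2 1449577_x_at (0.097 with the replicate block). Leaving out single arrays turned the sign of further GM values, with ranges of -0.206 to 0.034 for Tpm2 1419738_a_at, -0.098 to 0.021 for Tpm1 1423721_at, -0.085 to 0.0021 for Tpm2 1425028_a_at, -0.230 to 0.018 for Tpm3 1427260_a_at, -0.170 to 0.152 for Tpm4 1433883_at, -0.193 to 0.094 for Tpm2 1449577_x_at, -0.069 to 0.170 for Tpm3 1449997_at and -0.270 to 0.433 for Tpm1 1447713_at on MB. It also turned the interaction of Tpm3 1427567_a_at (-0.300 to 0.173). The cause was not tested.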
